A study of Homo sapiens with 4 samples.

Results

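Regions with an ATAC-seq peak in the T47D, HCT116 and RKO cell lines and no peak in SKBR3 were described here. The authors' 4 peak lists were merged on chromosomes 1 to 22, with peaks that shared at least 1 bp joined into a region, and 1460 of 162761 regions had this pattern of calls. They were chosen from the calls themselves, so the missing SKBR3 call is a definition and not a finding. A further 19305 regions had a call in all 4 lines, and the 2 sets together are the 20765 regions called in T47D, HCT116 and RKO.

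The series profiled 4 established human cancer lines, each labelled wild type (WT) and untreated by any agent the labels name. SKBR3, a breast cancer line, was grown in McCoy's 5A medium. T47D, also from breast cancer, was grown in RPMI. HCT116, a colorectal cancer line, was grown in McCoy's 5A and RKO, also colorectal, in DMEM. Each line was represented by 1 library of 60-bp single-end reads, so no spread between cultures could be measured and no p-value between lines is given. Intervals below are exact Clopper-Pearson 95% intervals for shares and cover counting error only.

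ATAC-seq uses a transposase that inserts adapters where DNA is not packed behind nucleosomes, so pile-ups of reads mark promoters, enhancers and insulator sites that are bound by proteins. Promoters of widely used genes are open in most cell types, while distal elements are often open in a few. In cancer lines a missing peak can reflect closed chromatin, but also fewer copies of the DNA or its loss, and a list of peaks does not separate these. A peak caller also misses weak sites, so "not called" does not mean closed.

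The libraries differed in depth and in the length of their lists. After removal of duplicates the SKBR3 library held 4313512 tags, T47D 5450100, HCT116 1057628 and RKO 3262240. SKBR3 had the longest list, with 108561 peaks on chromosomes 1 to 22, against 75390 for T47D, 38941 for HCT116 and 64571 for RKO. The share of duplicate tags was 47 to 63%. The pileup, which is the number of extended tags stacked at a peak's summit, is not scaled between libraries. It is therefore given as counted within a line, or as a percentile within that line's list, where 100 is the highest peak.

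Among the regions called in T47D, HCT116 and RKO, 7.03% lacked an SKBR3 call (interval 6.69 to 7.39%). The matching share was 9.57% for T47D (2044 of 21349 regions called in the other 3 lines), 24.5% for HCT116 (6270 of 25575) and 15.8% for RKO (3636 of 22941). SKBR3 was thus the line least often missing when the lists were used whole. That order changed with the peaks kept. At −log10 q of at least 5 in every list the shares were 8.15% for SKBR3, 5.42% for T47D, 28.2% for HCT116 and 14.4% for RKO. With every list shortened to the 38941 peaks of lowest q value, SKBR3 was the line most often missing, at 20.5% (3362 of 16382). The others were at 8.55% for T47D, 9.10% for HCT116 and 15.2% for RKO. The parts of list length, depth and peak strength in these changes were not tested. Only 545 of the 1460 regions overlapped a region of that shortened comparison, which is 37.3% of the 1460 and 16.2% of the 3362.

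The HCT116 list, the shortest, kept most candidate regions out of the set. Of 4560 regions called in T47D and RKO and not in SKBR3, 1460 were also called in HCT116, a share of 32.0% (30.7 to 33.4%). Of 25575 regions called in T47D, RKO and SKBR3, 19305 were called in HCT116, a share of 75.5% (74.95 to 76.0%). A region that lacked an SKBR3 call therefore lacked an HCT116 call more often as well.

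The 1460 regions ranked lower in each of the 3 lines than regions called in all 4. Their median pileup percentile in T47D was 48.5 (interquartile range 28.6 to 66.9), against 81.0 (62.8 to 91.7) for regions called in all 4 lines. In HCT116 the median was 40.8 (13.3 to 58.8) without an SKBR3 call and 65.3 (40.8 to 86.3) with calls in all 4 lines. In RKO it was 54.9 (38.2 to 75.1) without an SKBR3 call and 79.8 (59.0 to 91.5) with calls in all 4. These are descriptions of peaks within a list, and the ranges overlapped in every line. The percentiles correspond to median pileups of 11, 5 and 8 tags in T47D, HCT116 and RKO, against 29, 8 and 18 tags where all 4 lines had a call. The median fold enrichments over local background, as the authors' caller gave them, were 6.91, 4.79 and 6.22 in those lines, against 12.8, 7.29 and 9.86 for regions called in all 4.

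**Figure D1:**
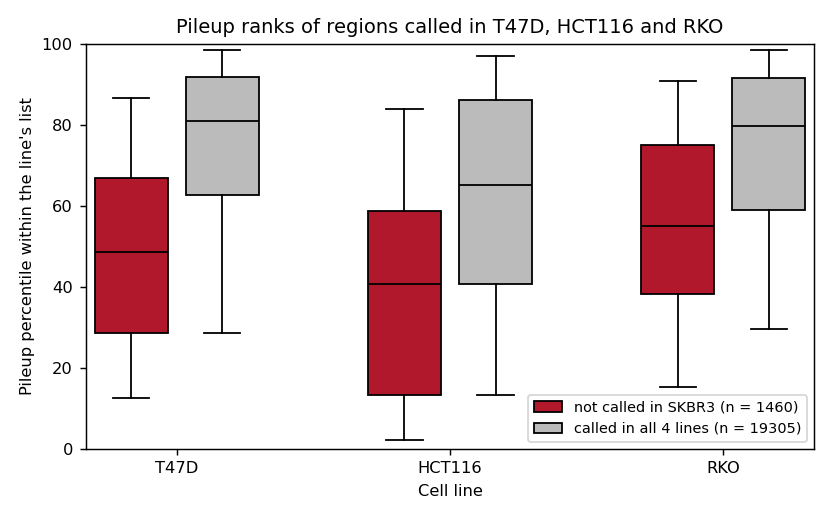
Pileup percentile within the list of T47D, HCT116 and RKO (vertical axis) for the 1460 regions not called in SKBR3 (red) and the 19305 regions called in all 4 lines (grey). Boxes span the quartiles with the median as a line and whiskers run between the 5th and 95th percentiles of the regions. The red boxes sit lower in each line, with medians of 48.5, 40.8 and 54.9.

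Few of the regions were strong in all 3 lines at once. A −log10 q of at least 10 in T47D, HCT116 and RKO was reached by 50 of the 1460 (3.42%), where 34.0% of all regions called in those 3 lines did so. By line, 613 of the 1460 reached it in T47D (42.0%, against a background of 83.4%), 129 in HCT116 (8.84%, against 38.8%) and 474 in RKO (32.5%, against 65.7%). A pileup at or above the list's median in all 3 lines was found in 308 regions (21.1%, against 59.3%). None of the 1460 lay in the top 10% of pileups in all 3 lists, where 2546 of the 19305 regions called in all 4 lines did.

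The regions were also narrower, while the spans of their summits in bp were similar. Their median width was 262.5 bp (range 110 to 1238 bp), against 469 bp where all 4 lines had a call. At least 600 bp was spanned by 114 of the 1460 (7.81%), against 6449 of the 19305 (33.4%). The summits of the 3 lines lay within a median span of 53 bp, against 49 bp for regions called in all 4 lines, and within 100 bp in 81.6% of the regions, against 81.3% for those called in all 4. The summit spans of T47D, HCT116 and RKO were thus similar in bp in both sets. A span cannot exceed the width of its region, so similar spans in narrower regions do not show equal agreement in position. Across the 1460 regions the pileups of different lines followed each other less closely: Spearman's rho was 0.38 for T47D and HCT116, 0.51 for T47D and RKO and 0.46 for HCT116 and RKO, against 0.71, 0.75 and 0.73 where all 4 lines had a call. These coefficients describe regions that share libraries and a narrow range of low counts, and no test was made of them.

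At the edge of the definition the calls were marginal. The 5 regions with the weakest evidence in their best line had a highest −log10 q of 2.60 to 3.06, with pileups of 2 to 8 tags. The 5 regions just outside the set had an SKBR3 peak with a −log10 q of 1.01, a pileup of 2 tags and a fold of 2.55 to 2.56. SKBR3 calls with a −log10 q under 2 were few, at 102 of the 19305 regions called in all 4 lines (0.528%). Those under 5 numbered 2267 (11.7%), which is more than the 1460 regions of the set. The median SKBR3 −log10 q over the 19305 was 15.5.

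SKBR3 peaks were usually nearby. The distance between a region and the nearest SKBR3 peak had a median of 3741.5 bp (interquartile range 1306.5 to 10897 bp). Regions missing only in T47D, HCT116 or RKO lay farther from a peak of the line that lacked them, at medians of 11160, 11199 and 9236.5 bp, in lists that held fewer peaks. Within the SKBR3 list itself, the 56086 merged regions without an SKBR3 call had a median distance of 5568.5 bp.

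**Figure D2:**
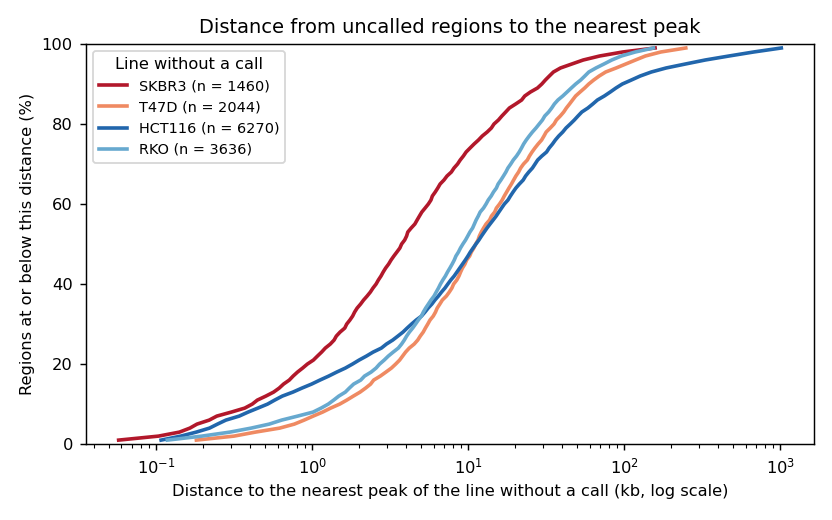
Distance to the nearest peak of the line that lacks the call (horizontal axis, kb on a log scale) against the share of regions at or below that distance (vertical axis, %), for regions missing only in SKBR3, T47D, HCT116 or RKO. The SKBR3 curve lies left of the others over most of its length, with a median of 3741.5 bp.

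By distance, 303 regions (20.8%) had an SKBR3 peak within 1 kb, which is close to the 19.5% among all regions with no SKBR3 call. A further 771 (52.8%) had one at 1 to 10 kb and 321 at 10 to 50 kb. No SKBR3 peak lay within 50 kb of 65 regions (4.45%), against 8.03% of all regions with no SKBR3 call. The shares missing only in other lines and over 50 kb from a peak of that line were 12.6% for T47D, 18.1% for HCT116 and 9.63% for RKO.

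Some of the nearest peaks almost touched the region. The closest SKBR3 peak lay 2 bp from chr5:131746443-131746948. Another was 12 bp from a chromosome 5 region with pileups of 45, 14 and 19 tags in T47D, HCT116 and RKO. The folds of that region over local background were 6.37, 6.60 and 3.57, with a −log10 q of 4.33 in RKO. Of the 303 SKBR3 peaks within 1 kb, 99 belonged to regions called in all 4 lines (32.7%, 27.4 to 38.3%), against 18.1% of all regions with an SKBR3 call. Another 86 were called in SKBR3 alone (28.4%, against 46.5%). The neighbouring peak was thus shared by all lines more often than SKBR3 regions at large were. SKBR3 peaks beside other regions were not compared. When peaks up to 500 bp apart were merged, 1347 regions were left and 120 of them had an SKBR3 peak within 1 kb.

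Pileup ranks were lower at greater distance from SKBR3 peaks. The median percentile in T47D was 60.5 within 1 kb of an SKBR3 peak, 48.5 at 1 to 10 kb, 34.7 at 10 to 50 kb and 34.7 beyond 50 kb. In RKO it was 65.7, 54.9, 45.0 and 45.0 over the same classes, and in HCT116 40.8, 40.8, 28.6 and 28.6. Ranks by fold enrichment over local background ran the other way in T47D, with medians of 39.4, 47.3, 49.0 and 50.4. The RKO medians of 59.7, 58.8, 53.1 and 54.8 and the HCT116 medians of 38.0, 39.1, 36.2 and 34.3 were lower beyond 10 kb, by fewer percentile points than the pileup ranks. The local background itself, recovered from the deposited pileup and fold, had T47D medians of 1.13, 0.52, 0.23 and 0.24 tags, and its part in the pileup ranks was not tested.

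In the median, the surroundings of the regions held about as many SKBR3 peaks as those of shared sites. Within 50 kb on either side the median number of SKBR3 peaks was 6 (interquartile range 3 to 10), against 7 (4 to 10) around regions called in all 4 lines. T47D had a median of 5 peaks in both cases, HCT116 3 and RKO 4. Surroundings with no SKBR3 peak were however more frequent, at 4.45% against 2.29%. The shares with no peak of the other lines were 6.23% against 5.65% (T47D), 14.1% against 13.6% (HCT116) and 5.89% against 5.31% (RKO). A second region of the set lay within 50 kb of 241 of the 1460 (16.5%).

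Most regions stood alone. A run was counted where regions followed each other with no SKBR3 peak between them, and 1367 of the 1460 (93.6%) were single, 78 lay in 39 pairs and 15 in 4 runs of 3 or more. The shares of single regions were 89.2% for those missing only in T47D, 70.3% for HCT116 and 83.2% for RKO, with 8, 185 and 25 runs of 3 or more. Any peak of the line without the call breaks a run, and the SKBR3 list was the longest, so the lines do not compare evenly. With lists of equal length SKBR3 had 72 runs of 3 or more, and the other lines were not counted under that setting. The 4 runs missing in SKBR3 were on chromosomes 8 and 19, 2 on each. Pairs were short by comparison, with a median of 45.3 kb between the SKBR3 peaks on either side (range 9.02 to 544 kb), and 9 of the 39 exceeded 100 kb; 6 pairs were regions under 1 kb apart.

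Chromosome 8 lacked SKBR3 calls most often. There, 120 of 829 regions called in T47D, HCT116 and RKO had no SKBR3 call, a share of 14.5% (12.2 to 17.1%). Chromosome 4 followed with 10.6% (76 of 718), and the lowest shares were on chromosome 13 (3.46%, 13 of 376) and chromosome 7 (3.94%, 40 of 1016). Chromosome 8 was however the chromosome most often missing in each of the other lines as well, at 16.7% for T47D, 29.3% for HCT116 and 18.6% for RKO. Relative to the line's own share over all chromosomes this was 2.06 times for SKBR3, 1.74 times for T47D, 1.20 times for HCT116 and 1.17 times for RKO. Without chromosome 8 the SKBR3 share over the remaining chromosomes was 6.72% (1340 of 19936).

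**Figure D3:**
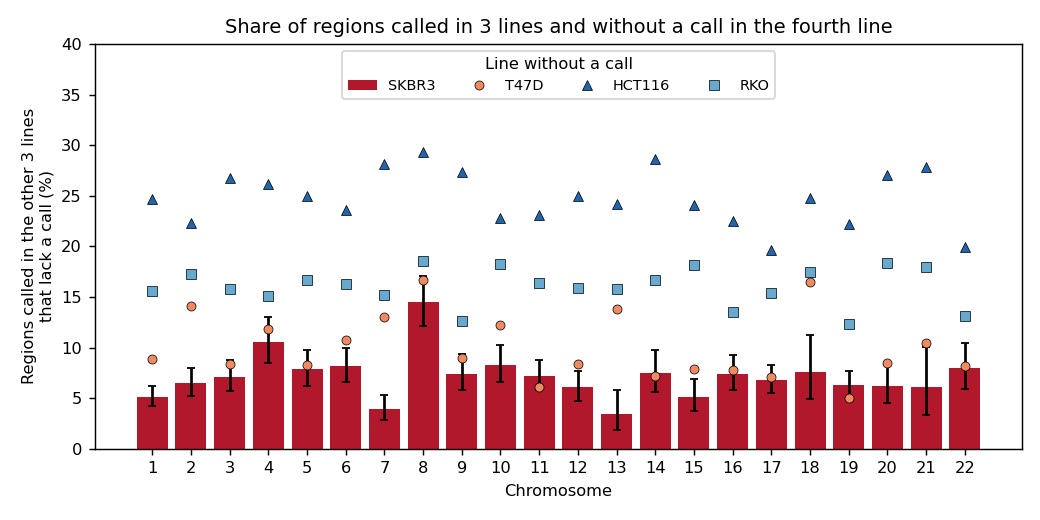
Share of regions called in the other 3 lines that lack a call in the named line (vertical axis, %), by chromosome (horizontal axis). Bars are SKBR3 with exact 95% intervals, and points are T47D, HCT116 and RKO. The SKBR3 bar of chromosome 8 is the tallest at 14.5%, and the points of the other lines are at their highest there too.

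The distance classes showed the same chromosome. Chromosome 8 held 5.94% of the regions within 1 kb of an SKBR3 peak, 5.45% at 1 to 10 kb, 12.1% at 10 to 50 kb and 32.3% (21 of 65) beyond 50 kb. Chromosome 4 held 9 of the 65 (13.8%) and chromosome 19 held 6 (9.23%). Of all regions called in T47D, HCT116 and RKO, chromosome 8 held 3.99%, chromosome 4 3.46% and chromosome 19 6.77%. In stretches of 5 Mb with at least 10 regions called in T47D, HCT116 and RKO, a scale chosen after the data were seen, the median share without an SKBR3 call was 6.30% over 494 stretches. The share was 0 in 80 of them and above 25% in 7. It exceeded 50% in 2, one on chromosome 19 and one on chromosome 8.

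On chromosome 19 between 20 and 25 Mb, 13 of 14 regions called in the other 3 lines had no SKBR3 call (92.9%, 66.1 to 99.8%). Outside that stretch chromosome 19 was ordinary, with 76 of 1392 regions lacking the call (5.46%). The chromosome is known for clusters of KRAB zinc finger genes, many of which encode repressors of transposable elements. Whether these regions lie in such genes was not looked up, since no hg19 annotation was used here. HCT116 lacked 5 of the 6 regions there that the other 3 lines shared, and neither T47D nor RKO lacked the single region that the remaining lines shared.

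The SKBR3 list was thin along most of this stretch, beyond the regions themselves. It held 33 peaks, against 105 in T47D, 18 in HCT116 and 112 in RKO. In the first 0.5 Mb, a split chosen after the data were seen, SKBR3 had 16 peaks, T47D 16, HCT116 0 and RKO 14, with SKBR3 pileups of up to 48 tags. In the remaining 4.5 Mb SKBR3 had 17 peaks, T47D 89, HCT116 18 and RKO 98, and no SKBR3 peak passed 6 tags or the 43.7th percentile of its list. The change from crowded to sparse calls in SKBR3 thus fell inside the stretch. All 13 regions lay in the remaining 4.5 Mb. This follows from the definition, since a region of the set needs an HCT116 peak and HCT116 had 0 in the first 0.5 Mb.

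**Figure D4:**
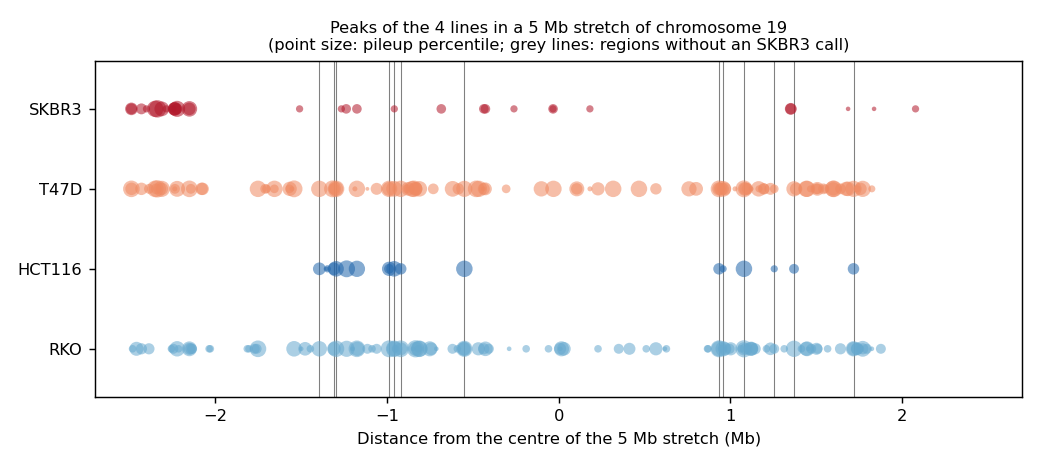
Peaks of SKBR3, T47D, HCT116 and RKO (rows) along the stretch of chromosome 19 between 20 and 25 Mb, by distance from its centre (horizontal axis, Mb), with point size set by pileup percentile within the list. Grey lines mark the 13 regions without an SKBR3 call. SKBR3 points are dense and large at the left end and few and small elsewhere, where T47D and RKO points continue.

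The 13 regions were wide and strong compared with the rest of the set. Their median width was 651 bp and 10 of the 13 spanned at least 600 bp. Median pileup percentiles were 85.5 for T47D, 50.8 for HCT116 and 86.7 for RKO, with pileups of 6 to 49, 3 to 15 and 4 to 37 tags. One of them, chr19:23577849-23578499 (hg19), had pileups of 49, 15 and 37 tags in T47D, HCT116 and RKO and lay 272332 bp from the nearest SKBR3 peak. It belonged to a run of 4 regions, first start 23432690 and last end 23754940, in 1169.2 kb with no SKBR3 peak, where T47D had 25 peaks, HCT116 4 and RKO 28. A second run of 3 regions, first start 21105834 and last end 21203903, lay in 243.2 kb without an SKBR3 peak, where T47D had 5 peaks, HCT116 5 and RKO 6. The single region of the stretch that SKBR3 did call, chr19:21324626-21325219, had 4 tags in SKBR3, the 27.0th percentile of that list, against 39 tags for T47D (87.8th percentile), 14 for HCT116 (86.3rd) and 28 for RKO (90.1st). The called site was thus low in SKBR3 and high in the other lines.

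On chromosome 8 between 105 and 110 Mb, 11 of 16 such regions had no SKBR3 call (68.8%, 41.3 to 89.0%). The list of SKBR3 held 51 peaks there, against 85 in T47D, 30 in HCT116 and 111 in RKO. HCT116 lacked 5 of 10 regions that the other lines shared. The 11 regions were narrower and ranked lower than those of chromosome 19. Their median width was 273 bp and their median pileup percentiles were 34.7 in T47D, 13.3 in HCT116 and 50.3 in RKO. A −log10 q of at least 10 in all 3 lines was still reached by 2 of the 11, against 3.42% of the whole set. The one with the highest lowest percentile over the 3 lines, chosen after its values were seen, was chr8:107738142-107738430, with pileups of 24, 11 and 28 tags in T47D, HCT116 and RKO and an SKBR3 peak 28842 bp away.

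**Figure D5:**
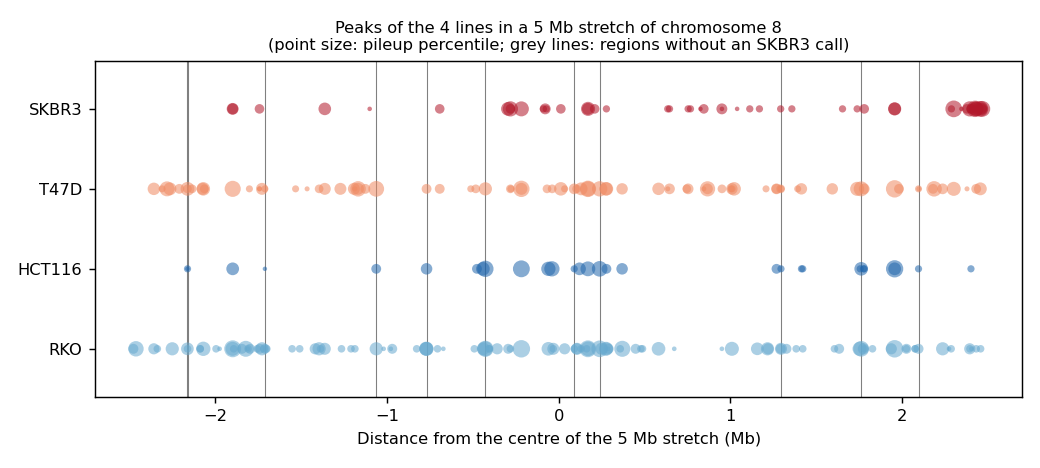
Peaks of SKBR3, T47D, HCT116 and RKO (rows) along the stretch of chromosome 8 between 105 and 110 Mb, by distance from its centre (horizontal axis, Mb), with point size set by pileup percentile within the list. Grey lines mark the 11 regions without an SKBR3 call. SKBR3 points are small over most of the stretch and crowded at its right end.

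The adjoining stretch between 100 and 105 Mb had a lower share, with 9 of 52 regions lacking an SKBR3 call (17.3%, 8.23 to 30.3%). Between 95 and 100 Mb, 15 of 49 regions lacked an SKBR3 call (30.6%), and between 90 and 95 Mb 6 of 20 did (30.0%). Over 90 to 110 Mb the share was 29.9% for SKBR3 (41 of 137, 22.4 to 38.3%), against 13.5% for T47D, 23.2% for HCT116 and 16.5% for RKO. On the rest of chromosome 8 it was 11.4% for SKBR3 (79 of 692), 17.2% for T47D, 30.2% for HCT116 and 18.9% for RKO. The shares of the other 3 lines were lower inside 90 to 110 Mb than outside it, with overlapping intervals. Inside and outside these were 7.77 to 21.3% and 14.5 to 20.1% for T47D, and 16.1 to 31.6% and 27.2 to 33.3% for HCT116. For RKO they were 10.3 to 24.6% and 16.2 to 21.9%. The SKBR3 share was higher inside, but the window spans stretches picked for missing SKBR3 calls. Shares of the other lines count only regions that SKBR3 called. These shares were not tested against each other. The run of 5 regions at first start 104719615 and last end 105338672 lay in 944.7 kb without an SKBR3 peak, where T47D had 17 peaks, HCT116 5 and RKO 23. In the 1 Mb before that gap SKBR3 had 58 peaks, T47D 40, HCT116 33 and RKO 49, and in the 1 Mb after it SKBR3 had 5, T47D 17, HCT116 3 and RKO 26. Peaks were fewer after the gap than before it in every line, HCT116 included. The fourth run, 3 regions with first start 98388008 and last end 98565911, lay in 264.0 kb, where T47D had 8 peaks, HCT116 4 and RKO 5.

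Some sites that SKBR3 did call in these stretches ranked low in its list. The stretches were picked for missing SKBR3 calls, which depend on the same pileup, so these ranks are a description and no independent support. For each region called in all 4 lines the SKBR3 pileup percentile was set against the median of the percentiles in T47D, HCT116 and RKO. Over all 19305 such regions the median difference was 1.58 percentile points, with SKBR3 below the other lines in 41.6%. Between 105 and 110 Mb of chromosome 8 it was -40.4 points and negative in 5 of 5 regions, whose SKBR3 pileups were 3 to 13 tags. Between 95 and 100 Mb it was -24.0 points and negative in 28 of 34, and between 90 and 95 Mb -17.7 points and negative in 8 of 14. Between 100 and 105 Mb it was -0.75 points and negative in 25 of 43. On chromosome 8 outside 90 to 110 Mb it was -1.63 points and negative in 345 of 613. The share of negative differences between 90 and 95 Mb was 57.1%, close to the 58.1% between 100 and 105 Mb and the 56.3% of the rest of the chromosome. By that share, only 95 to 100 Mb and 105 to 110 Mb stood apart among these 4 stretches. By the median difference 90 to 95 Mb was low as well, with a wide interquartile range of -29.3 to 3.83 points over its 14 regions. Copy number was not measured here, so closed chromatin and fewer or lost copies cannot be told apart for any of these stretches.

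No other stretch of 5 Mb passed 50%. The next after chromosomes 19 and 8 were 100 to 105 Mb of chromosome 5 (3 of 10 regions), 185 to 190 Mb of chromosome 4 (7 of 25), 175 to 180 Mb of chromosome 3 (4 of 15) and 85 to 90 Mb of chromosome 10 (8 of 33). Among stretches of 2 Mb with at least 10 regions, which leaves out chromosome 19 between 20 and 24 Mb, the highest shares were on chromosome 8, with 7 of 13 regions at 96 to 98 Mb and 7 of 13 at 104 to 106 Mb (53.8% each).

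The regions with the highest pileup ranks were on several chromosomes. Ranked by the lowest of the 3 pileup percentiles, the first 10 regions lay on 8 chromosomes, 9 of them single, with lowest percentiles of 84.7 to 89.8. The first was chr14:105560132-105560442, with pileups of 51 tags in T47D, 16 in HCT116 and 30 in RKO and an SKBR3 peak 1817 bp away. The next, chr12:49582344-49583116, was 773 bp wide, with 61, 19 and 26 tags in T47D, HCT116 and RKO, and 30234 bp from an SKBR3 peak. By pileup these are sites in the upper part of 3 lists that were absent from the longest one. By fold over local background they differed. The first had 7.40, 8.61 and 11.4 in T47D, HCT116 and RKO, and the second 17.1, 14.6 and 11.8. Medians for regions called in all 4 lines were 12.8, 7.29 and 9.86.

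Of the others in that group, chr1:6265077-6265580 had 40, 17 and 27 tags in T47D, HCT116 and RKO and an SKBR3 peak at 352 bp. The region chr5:96038213-96038911 had 50, 15 and 41 tags and a peak at 3695 bp. On chromosome 17, chr17:56756627-56757331 had 56, 21 and 25 tags with a peak at 7066 bp, and chr17:48228395-48228749 had 57, 17 and 22 tags with a peak at 350 bp. The distances in the group fell into 2 within 1 kb, 5 at 1 to 10 kb and 3 beyond 10 kb. The region chr3:131080354-131081006 had 38, 20 and 41 tags and a peak at 7793 bp. The region chr10:104182467-104182703 had 46, 15 and 22 tags and a peak at 1148 bp, and chr12:121163461-121163868 had 40, 15 and 22 tags and a peak at 11509 bp. The remaining one was the chromosome 19 region with 49, 15 and 37 tags given above, the only one of the 10 in a run. The last place was tied, and chr19:21949956-21950597, with 34, 15 and 22 tags and 113115 bp to an SKBR3 peak, had the same lowest percentile of 84.7.

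Of the 50 regions with a −log10 q of at least 10 in all 3 lines, 18 lay over 10 kb from an SKBR3 peak and 11 within 1 kb. Chromosomes 8 and 19 held 9 of those 18, with 5 and 4, where they held 3.99% and 6.77% of all regions called in the 3 lines. The regions named next were chosen after their values were seen. Outside those chromosomes the farthest was chr3:110790150-110790761, with 26, 16 and 36 tags in T47D, HCT116 and RKO and 37393 bp to the nearest SKBR3 peak. The region chr11:130697725-130697991 followed at 33829 bp, with 36, 12 and 9 tags. On chromosome 8 outside 90 to 110 Mb, chr8:144536540-144537112 had 11, 23 and 50 tags at 12559 bp, so that HCT116 and RKO ranked it above the 96th percentile and T47D near its median.

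The farthest regions were mostly weak. The greatest distance was 444852 bp, at chr15:97778648-97778813, with pileups of 14, 3 and 3 tags in T47D, HCT116 and RKO. The regions at 417408 and 393515 bp belonged to the run of 4 on chromosome 19, with 45, 5 and 34 tags and 29, 3 and 15 tags. The next belonged to the run of 5 on chromosome 8, at 336261 bp with 5, 3 and 7 tags. The region chr4:20424173-20424376, at 277452 bp, had 4, 3 and 2 tags and was the single region of the set in a gap of 1622237 bp between SKBR3 peaks. Among these 5 the T47D and RKO pileups were highest in the 2 regions of chromosome 19.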

How the data were processed

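ATAC-seq peaks were compared across SKBR3, T47D, HCT116 and RKO, with 1 library each. The submitters' processing notes name Bowtie2 2.4.1, MACS3 3.0.0b3 and the hg19 build. Per the file headers, the authors called peaks on each library with a q cutoff of 0.1, no control, no shift and 1 tag kept per position. Each deposited row gives the pileup signal at the summit, a fold ratio over local background, and −log10 p and −log10 q scores of significance from the authors' caller. Percentiles of these values were computed within each list, ties averaged.

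Rows outside chromosomes 1 to 22 (3.35 to 4.67% of a list) were left out, with chromosome X used only as noted. The merge and the distances were tested on simulated data, where 0 of 10647 regions got a wrong pattern. Named regions were the strongest 10 by lowest percentile, the farthest 5 and nearest 5, runs of at least 3, and 5 on each side of the cutoff. Alternatives were stricter q values, lists of equal length, other merging rules and other ranked values. Regions and tests were chosen with earlier results of these data known. Python 3.11.15, pandas 2.3.3 and scipy 1.17.1 were used. Gene names and sequences were not used, since the reference at hand was of another build.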

Additional observations from a re-analysis of the deposited data

Results flagged for a closer look

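Chromosome X was outside the comparison and held 47 regions called in T47D, HCT116 and RKO and not in SKBR3, of 503 regions called in those 3 lines (9.34%, 6.95 to 12.2%). It appears here because it is a signal in data that the comparison did not use. A single run without an SKBR3 peak held 13 of them, and outside it 34 of 490 regions lacked the call (6.94%), close to the 7.03% of chromosomes 1 to 22. Copy number of the chromosome was not measured here.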

How the results depend on the processing

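Of 84 recomputed values, 45 kept their size and 39 moved, and the set was defined by thresholds that the alternatives change directly. With −log10 q of at least 10 in T47D, HCT116 and RKO, 50 regions were left (0.709%), with 0 in runs, a median distance of 5404 bp, 11 within 1 kb of an SKBR3 peak, median percentiles of 80.5, 81.5 and 86.2 in T47D, HCT116 and RKO, and 16.0% on chromosome 8 and 12.0% on chromosome 19. With lists of equal length, 3362 regions (20.5%) had 72 runs holding 260 regions, a median distance of 13624 bp, percentiles of 68.7, 50.8 and 68.4, and 5.77% on chromosome 8. With −log10 q of at least 5 in every list the share was 8.15%, the distance 10980 bp, 118 regions lay within 1 kb and the percentiles were 62.8, 58.8 and 68.4. Only 390 of those 1100 regions overlapped the 1460. With −log10 q of at least 2 the distance was 4097 bp, and with peaks up to 500 bp apart merged the share was 6.55%, the distance 4844 bp and 120 regions lay within 1 kb. Runs numbered 20 where a region called in all 4 lines, not any SKBR3 peak, had to break them. With chromosome X, 32 regions lay in runs and the percentiles were 48.8, 41.0 and 55.2. Ranks by fold gave 37.6 in HCT116 and 57.9 in RKO, and ranks by −log10 q gave 38.5 and 57.3. The cause of these shifts was not tested beyond the settings' own construction.

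On chromosome 19 between 20 and 25 Mb, 13 of 13 regions lacked the SKBR3 call with lists of equal length and 9 of 9 at −log10 q of at least 5. On chromosome 8 between 105 and 110 Mb the counts were 8 of 9 and 5 of 8. At −log10 q of at least 10 in the 3 lines they were 4 of 5 on chromosome 19 and 2 of 4 on chromosome 8. Both stretches were picked for missing SKBR3 calls, so these counts are no independent support. Lists of equal length and the cutoff of 5 also remove weak SKBR3 peaks. No paired analysis was possible because each line had 1 library. Low pileups, with a median of 5 tags in HCT116, limit what can be called absent.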
